A study of Homo sapiens with 4 samples.

Results

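The genes described here are 10 NF-kB targets and inflammatory cytokines, CXCL8, CXCL1, IL6, IL1B, LIF, CCL2, NFKBIA, TNFAIP3, RELB and ICAM1, taken by their symbols from the 36601 genes listed in 4 single-cell RNA libraries. All 10 were found, and 8 of them reached a mean level of at least 10 CPM over the libraries, as did 8513 genes in all. CPM here is the number of UMIs (unique molecular identifiers, each standing for 1 captured RNA molecule) of a gene per 1000000 UMIs. IL6 and IL1B stayed under that floor and are described by their counts.

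The cells were BEAS-2B, an immortalised line derived from human bronchial epithelium, grown in flasks. The groups were cells without radiation (the control) and cells irradiated with 10 mGy, 100 mGy or 1 Gy of caesium-137 gamma rays at 100 mGy per min, then kept in culture for 30 min. Each dose was 1 library, so dose and library cannot be told apart, no test of a dose was possible, and every interval given is a 95% interval of counting error alone. The questions were how much RNA of each gene was present at each dose and whether a minority of cells held it.

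NF-kB is a family of dimeric transcription factors that is held in the cytoplasm by inhibitors of the I-kappa-B group and enters the nucleus when an upstream kinase marks those inhibitors for destruction. It is known for switching on chemokines, cytokines and adhesion molecules in airway epithelium, and also its own inhibitors, which end the response. Ionising radiation is among its known triggers, through a signal from broken DNA.

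The sites that NF-kB binds have a recognisable sequence, so the stretch before the gene start was read for the members that the results turn on. RefSeq promoters of build GRCh38.p14 were matched for 7 of the 10 members, and LIF, CCL2 and RELB had no entry. Both strands of the 250 bases before the gene start were searched for the kappa B consensus, which has 10 letters, and for the shorter GGAANTTCC, and the matches of both can overlap. At least 1 of these was found in 6 of the 7, while 9.96% of 35116 promoters held the first, 0.826% held the second and 10.4% held either. The members were chosen as NF-kB targets, so a larger share among them is not an independent finding. Each sequence below has the matched letters in capitals, with 25 bases on either side, written 5′ to 3′ on the strand of the gene.
CXCL8, chr4:73740453-73740511, plus strand: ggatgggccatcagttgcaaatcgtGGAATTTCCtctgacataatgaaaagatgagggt
CXCL1, chr4:73869289-73869349, plus strand: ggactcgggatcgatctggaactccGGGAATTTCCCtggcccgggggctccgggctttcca
NFKBIA, chr14:35404796-35404855, minus strand: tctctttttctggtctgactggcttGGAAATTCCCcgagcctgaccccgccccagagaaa
TNFAIP3, chr6:137867167-137867238, plus strand: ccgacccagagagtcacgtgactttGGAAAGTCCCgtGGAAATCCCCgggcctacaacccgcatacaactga
ICAM1, chr19:10270909-10270967, plus strand: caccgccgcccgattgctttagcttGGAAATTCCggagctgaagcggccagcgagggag
These 5 are shown because they belong to CXCL8 and to genes that were enriched in barcodes rich in CXCL8. The matched letters of CXCL8 lay 91 to 83 bases before the gene start, those of CXCL1 79 to 69, those of NFKBIA 81 to 72, those of TNFAIP3 67 to 46 and those of ICAM1 186 to 178. The stretch of CXCL1 holds overlapping matches of both motifs, and that of TNFAIP3 holds 2 separate matches of the consensus. IL6 had 1 match of the consensus and IL1B none. A match is a likeness of letters and says nothing of binding in these cells.

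The libraries held 11111 to 21514 barcodes and 211752280 to 285806026 UMIs, with a median of 12417 to 19771 UMIs per barcode, and at most 0.864% of the barcodes of the smaller of any pair of libraries were shared. Low-UMI barcodes, those with under 1/3 of the median of their library, accounted for 19.6% of control barcodes and, with rising dose, for 41.4%, 27.4% and 25.4%. Ribosomal protein genes took 13.9% of the control UMIs and, with rising dose, 19.9%, 21.7% and 14.0%. Scaling to totals without ribosomal protein and mitochondrially encoded genes left 5 members lower and 1 higher at both 10 mGy and 100 mGy, with CXCL8 at a log2 ratio of -0.72 and -0.94 and RELB within 1.2-fold at 100 mGy, at -0.20. On that scale 47.6% and 49.8% of all genes were lower and 19.7% and 18.2% higher. The median percentage of mitochondrially encoded UMIs per barcode was 5.75% in the control and 4.17%, 4.29% and 5.41% by rising dose. The epithelial markers KRT7, KRT8 and KRT18 and the mesenchymal markers VIM and FN1 were abundant, whereas CDH1, a defining epithelial marker, was at or under 0.0317 CPM and EPCAM at 0.837 to 1.15 CPM. Of the markers over the floor, 1 of 3 epithelial and 3 of 4 mesenchymal ones were more than 1.2-fold lower than the control at 10 mGy, and at 100 mGy 1 epithelial marker was higher and 3 mesenchymal ones lower. FN1 was at 0.375 and 0.408 times the control at those doses, KRT7 at 0.758 and 0.863 times and KRT18 at 1.08 and 1.25 times. The part of these differences in the results below was not tested. The 6 lymphocyte markers summed to at most 0.0566 CPM, the 3 endothelial markers to at most 0.752 CPM and the 6 macrophage markers to 8.58 to 11.8 CPM, most of it CD68.

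Against the control, CXCL8, CXCL1, LIF and TNFAIP3 were lower at 10 mGy and at 100 mGy, with ratios under 1 in all 13 ways of scaling and filtering that were tried (CXCL1 within 1.2-fold when divided by the median of all genes), and CCL2 was the only member that was higher at both doses on the scale used. NFKBIA stayed within 1.2-fold at every dose on that scale. At 1 Gy, 7 of the 8 members over the floor were within 1.2-fold of the control, as were 8265 of 8513 genes, and CXCL8 was 0.797 times the control. A gene was counted as higher or lower when its mean level, with every barcode scaled to the same total, differed by more than 1.2-fold. Of all genes over the floor, 54.2% and 58.7% were lower at 10 mGy and 100 mGy, and 16.1% and 13.9% were higher.

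CXCL8 encodes interleukin-8, the chemokine that draws neutrophils. Its mean scaled level was 39.7 CPM in the control, 22.6 CPM at 10 mGy, 19.1 CPM at 100 mGy and 31.7 CPM at 1 Gy, from 8416, 6357, 4323 and 7001 UMIs. The control was highest and the 100 mGy library lowest, and each step of the order control, 1 Gy, 10 mGy, 100 mGy was larger than the counting error. That error takes each UMI as independent, while CXCL8 UMIs were uneven over barcodes, so the error over cells is larger. The ratio to the control was 0.568 at 10 mGy and 0.480 at 100 mGy. Of UMIs pooled over barcodes it was 0.562 (0.544 to 0.581), 0.447 (0.431 to 0.464) and, at 1 Gy, 0.836 (0.810 to 0.863), so that on this pooled scale CXCL8 at 1 Gy was within 1.2-fold.

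CXCL1, a chemokine that acts on the same neutrophil receptor family, stood at 35.8 CPM in the control, 25.8 CPM at 10 mGy, 23.7 CPM at 100 mGy and 33.2 CPM at 1 Gy. The order of the libraries was that of CXCL8, with smaller steps. Its ratios, with rising dose, were 0.722, 0.662 and 0.928.

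CCL2, the chemokine that draws monocytes, stood at 28.2 CPM in the control, 45.4 CPM at 10 mGy, 42.9 CPM at 100 mGy and 26.2 CPM at 1 Gy. Here the 10 mGy and 100 mGy libraries were the high ones, and each step of their order, 10 mGy, 100 mGy, control, 1 Gy, was larger than the counting error. The first step, at a ratio of 1.06 (1.03 to 1.09), and the last, at 1.05 (1.01 to 1.09), were small. CCL2 UMIs were also uneven over barcodes, so the error over cells is larger and the order within these steps is not settled. The ratio of 1.61 at 10 mGy was above that of 96.3% of the genes over the floor, and the ratio of 1.52 at 100 mGy above that of 95.3%. In UMIs per barcode without scaling, the log2 ratio of CCL2 was 0.09 at 10 mGy and -0.11 at 100 mGy, beside medians of all genes of -0.83 and -1.03 on that scale.

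**Figure D1:**
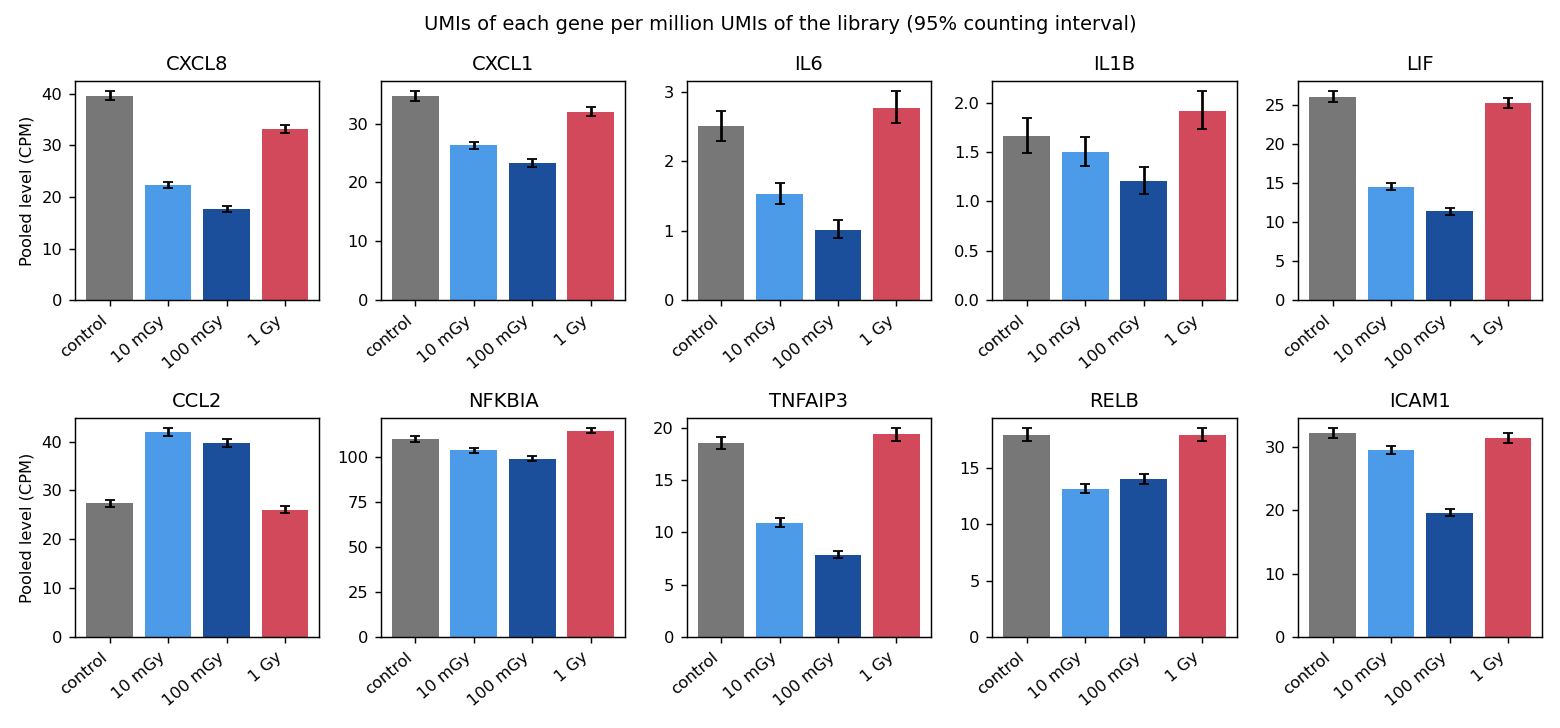
Bars give the pooled level of each of the 10 genes in CPM (vertical axis, from 0, with its own scale in each panel) in the control, 10 mGy, 100 mGy and 1 Gy libraries, and error bars give the 95% counting interval. CXCL8 and LIF were low at 10 and 100 mGy, at 22.2 and 17.7 CPM and at 14.6 and 11.4 CPM, while CCL2 was high there, at 42.0 and 39.8 CPM, a direction that unscaled UMIs per barcode turn at 100 mGy.

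LIF encodes leukaemia inhibitory factor, a cytokine of the interleukin-6 family. Its level was 25.0 CPM in the control, 12.8 CPM at 10 mGy, 10.9 CPM at 100 mGy and 22.0 CPM at 1 Gy. The ratio to the control was 0.513 at 10 mGy and 0.437 at 100 mGy. Pooled, the control and 1 Gy libraries did not differ beyond counting error (ratio 0.971, 0.935 to 1.01).

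IL6 and IL1B, both cytokines that drive fever and the acute phase response, were rare. IL6 had 532 UMIs in the unirradiated library and 437, 248 and 586 with rising dose, in 4.38%, 1.83%, 1.18% and 3.51% of barcodes. The pooled ratio of IL6 with rising dose was 0.612 (0.538 to 0.695), 0.406 (0.348 to 0.473) and 1.11 (0.983 to 1.25). It was thus low at the same doses as LIF, and 1 Gy and the control did not differ beyond counting error. IL1B had 353, 429, 295 and 406 UMIs in that order of libraries, in 1.32% to 2.85% of barcodes. By rising dose its pooled ratio was 0.905 (0.784 to 1.04), 0.727 (0.621 to 0.851) and 1.16 (1.00 to 1.34), so at this depth a difference of IL1B from the control was not detectable at 10 mGy or at 1 Gy.

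The 2 inhibitors among the members differed from each other. NFKBIA, which encodes I-kappa-B alpha, the protein that returns NF-kB to the cytoplasm, stood at 114 CPM in the control, 115 CPM at 10 mGy, 105 CPM at 100 mGy and 121 CPM at 1 Gy. The 3 ratios were 1.01, 0.925 and 1.06, all within 1.2-fold. TNFAIP3 encodes A20, which removes ubiquitin chains from the upstream signalling complex, and stood at 17.0 CPM, 10.3 CPM, 7.54 CPM and 19.4 CPM in the same order. TNFAIP3 was thus lowest at 100 mGy, with ratios of 0.607, 0.445 and 1.15 by rising dose.

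RELB, an NF-kB subunit of the slower, non-canonical branch, stood at 16.9 CPM in the control, 12.1 CPM at 10 mGy, 13.5 CPM at 100 mGy and 16.7 CPM at 1 Gy. Its ratio of 0.798 at 100 mGy lay close to the threshold and turned to a log2 ratio of 0.05 when the ratios were divided by the median over all genes. ICAM1, an adhesion molecule of the cell surface that white blood cells bind, stood at 30.4 CPM, 27.0 CPM, 19.4 CPM and 29.8 CPM. It was within 1.2-fold at 10 mGy, at 0.889 times the control, and was 0.639 times the control at 100 mGy. Between 100 mGy and 10 mGy, ICAM1 had a pooled ratio of 0.664 (0.641 to 0.688), TNFAIP3 of 0.720 (0.680 to 0.762) and RELB of 1.06 (1.02 to 1.12).

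Many other genes were lower in the same 2 libraries. At 10 mGy, 1 of the 8 members over the floor was higher and 5 were lower, where 16.1% of the 8513 genes were higher and 54.2% lower. At 100 mGy, 1 was higher and 6 were lower, where 13.9% of genes were higher and 58.7% lower. At 1 Gy, CXCL8 alone was lower and no member was higher, where 1.61% of genes were higher and 1.3% lower. With a threshold of 1.5-fold, 1 member was higher and 3 were lower at 10 mGy, beside 5.52% and 27.6% of genes, and 1 was higher and 5 were lower at 100 mGy, beside 5.05% and 33.3%. No member passed 1.5-fold at 1 Gy, beside 0.0235% of genes higher and 0.0117% lower. On this scale the 1.2-fold counts at 10 mGy lay near the shares of all genes. At both thresholds, lower members took a larger share than lower genes did, at 10 mGy as at 100 mGy. The excess was larger at 100 mGy, in a set of only 8 and with no test. With the ratios divided by the median of all genes, 2 members were higher and 3 lower at 10 mGy, beside 31.3% and 28.3% of genes, and 2 were higher and 4 lower at 100 mGy, beside 31.5% and 28.8%. In unscaled UMIs per barcode, 7 were lower at each of these doses, beside 84.5% and 90.0% of genes.

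On the log2 scale, the 8 members had a median of -0.47, -0.62 and -0.07 by rising dose, and that of all genes over the floor was -0.32, -0.38 and 0.00. Relative to those medians of all genes, CXCL8 was at 0.707 and 0.624 times, LIF at 0.638 and 0.567 times and TNFAIP3 at 0.756 and 0.578 times at 10 mGy and 100 mGy. CCL2 was at 2.0 and 1.98 times and NFKBIA at 1.26 and 1.2 times on this relative scale. The relative values of CXCL1, 0.898 and 0.860, and of RELB, 0.895 and 1.04, were within 1.2-fold.

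Gene length moved with these ratios. Over 8505 genes with an exonic length in GENCODE 29, Spearman's rho of the log2 ratio with length was -0.569, -0.575 and -0.118 by rising dose, a description across genes that share the same libraries. The members are mostly short, from CXCL1 at 1296 bases, with 2.81% of genes over the floor shorter, to TNFAIP3 at 5051 bases, with 46.3% shorter. As an alternative chosen after seeing the data, the ratio of each gene to the control was divided by the median ratio of genes of like length, which gave 0.507 and 0.448 for CXCL8 and 0.530 and 0.497 for CXCL1 at 10 mGy and 100 mGy. Both were thus further below genes of their own length than below all genes. CCL2 was at 1.32 and 1.29 on this scale, still above genes of its length but by less. NFKBIA, above the median of all genes, was below that of genes of its length, at 0.902 and 0.862. With every ratio set against genes of like length, 5 of the 8 members were lower and 1 higher at both doses, beside 23.3% and 23.5% of all genes lower and 25.0% and 25.3% higher. The share of lower genes was then larger among the 8 members than among all genes at both doses, with no test.

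**Figure D2:**
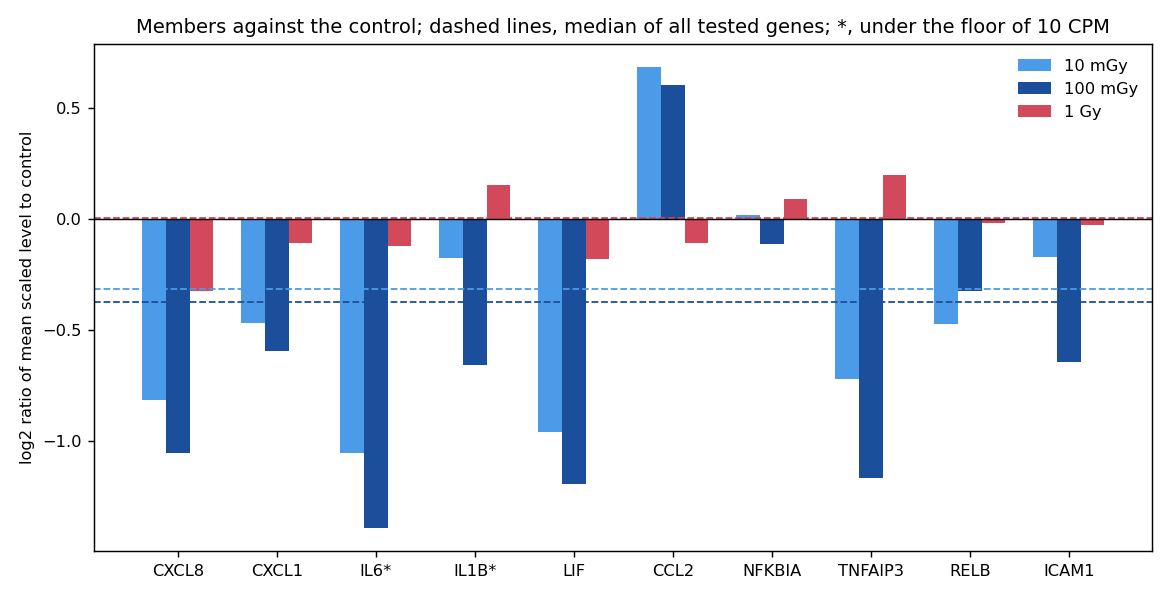
Bars give the log2 ratio of the mean scaled level at 10 mGy, 100 mGy and 1 Gy to the control for the 10 genes, and dashed lines give the median over the 8513 genes of at least 10 CPM at each dose (-0.32, -0.38 and 0.00). CCL2 lies above 0 at the first 2 doses (0.68 and 0.61, the second turning to -0.11 in unscaled UMIs), and LIF and TNFAIP3 reach -1.2 and -1.17 at 100 mGy.

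The rest of the pathway was described by lists chosen with earlier results of these data known. Beside their counts stand the shares of all genes over the floor, of which 54.2%, 58.7% and 1.3% were lower and 16.1%, 13.9% and 1.61% higher by rising dose. The lists were not set against genes of like length, and the part of gene length in their counts and medians was not tested. Of the NF-kB subunits and their kinase complex, 7 of 8 were over the floor, of which 6 were lower at both 10 mGy and 100 mGy, 0 were lower at 1 Gy and none was higher at any dose. RELA, the main activating subunit, stood at 76.5, 51.6, 55.2 and 79.5 CPM in the control, 10 mGy, 100 mGy and 1 Gy libraries, and NFKB1 at 62.3, 35.0, 33.1 and 58.2 CPM. The ratios at 10 mGy and 100 mGy were 0.635 and 0.516 for NFKB2, 0.813 and 0.742 for REL, 0.625 and 0.624 for the kinase CHUK and 0.680 and 0.647 for the kinase IKBKB. IKBKG, the regulatory subunit of that kinase complex, was within 1.2-fold at 0.881 and 0.920. These 7 had a median of -0.57 and -0.63 on the log2 scale at the 2 lower doses, beside -0.32 and -0.38 for all genes.

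Among the other genes of the I-kappa-B family and brakes on the pathway, 9 of 11 were over the floor. The number lower than the control was 7, 8 and 0 by rising dose. The list was not limited to genes that only inhibit NF-kB. The lowest ratios at 10 mGy were those of TRAF3, which restrains the non-canonical branch, at 0.508, and of TNIP1, a partner of A20, at 0.525. NFKBIZ was at 0.600, NFKBIE at 0.630, the deubiquitinase CYLD at 0.689, TNIP2 at 0.786 and OTULIN at 0.821. NFKBIB, the beta form of the inhibitor, was within 1.2-fold at 0.896 and BCL3 at 0.878. NFKBIA, with its 1.01, lay above each of these 9 at 10 mGy. At 100 mGy BCL3, at 0.956, was above NFKBIA, at 0.925. At 1 Gy BCL3 (1.18) and OTULIN (1.11) were above NFKBIA (1.06). The median log2 ratio of the 9 was -0.54 and -0.67 at the 2 lower doses.

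Of the receptors and adaptors upstream, 13 of 19 were over the floor, and 10 were lower and 1 higher at 10 mGy, 11 lower at 100 mGy and 1 higher at 1 Gy. At 10 mGy, BIRC2 at 0.471 and TAB2 at 0.523, both parts of the ubiquitin and kinase relay, had the lowest ratios, and the adaptors TRADD at 1.35 and MYD88 at 1.13 the highest. Of the receptors of the member cytokines, 4 of 10 were over the floor, and the number lower was 3, 4 and 0 by rising dose. LIFR and IL6ST, the chains of the LIF receptor, had ratios of 0.525 and 0.568 at 10 mGy, and the interleukin-1 receptor chains IL1RAP and IL1R1 had 0.731 and 0.838. CXCR1 and CCR2 were at 0 UMIs in every library, where a count of 0 allows up to 3 UMIs. The medians at 10 mGy and 100 mGy were -0.49 and -0.57 for the upstream list and -0.63 and -0.88 for the 4 receptors.

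Of the other NF-kB targets, 7 of 22 were over the floor, of which 1 was higher and 2 lower at 10 mGy, 4 were lower at 100 mGy and 0 passed either threshold at 1 Gy. BIRC3, an inhibitor of cell death, had the lowest ratio, at 0.293, with 35.0, 10.3, 13.0 and 30.3 CPM in the 4 libraries, and IL11 stood at 0.501. SOD2, the mitochondrial superoxide dismutase, was at 1.29 and IRF1 at 1.04. All 6 factors that bind AU-rich mRNA were over the floor, and by rising dose 5, 6 and 0 of them were lower. Their ratios at 10 mGy ran from ZFP36L1 at 0.589 and KHSRP at 0.687 to ZFP36L2 at 0.820 and ZFP36 at 0.878. Of the 12 immediate early genes, 10 were lower and 2 higher at both 10 mGy and 100 mGy, and 2 were higher at 1 Gy. FOSB at 0.327 and FOS at 0.374 were lowest at 10 mGy, and EGR1 at 1.41 and JUND at 1.33 highest. At the 2 lower doses the medians were -0.13 and -0.28 for the 7 other targets over the floor, -0.46 and -0.48 for the AU-rich factors and -0.52 and -0.59 for the immediate early genes. Over the 21 of 22 other targets that had UMIs in both libraries the medians were -0.42 and -0.61, with the chemokines CXCL3 at 0.329 and 0.302 times the control and CXCL2 at 0.646 and 0.339 times, both under the floor and named after their values were seen.

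To see how the UMIs were spread over cells, the barcodes with at least 5000 UMIs, which numbered 9060, 12561, 14271 and 11530 from the control to 1 Gy, were thinned at random to exactly 5000 UMIs. This left out 2051, 8953, 5679 and 3980 shallower barcodes. For CXCL8, at least 1 UMI was found in 12.5% (11.8 to 13.2) of the thinned control barcodes and in 7.83% (7.36 to 8.31), 6.24% (5.85 to 6.65) and 10.9% (10.4 to 11.5) by rising dose. Without thinning, these shares were 28.2%, 14.8%, 11.0% and 20.5%. All cells were of 1 line, so no cell type that should lack the gene could serve as background. In the low-UMI barcodes, CXCL8 had 43.3, 23.7, 24.7 and 28.5 CPM in the same order, beside 38.8, 21.8, 17.0 and 32.7 CPM in the other barcodes.

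CXCL8 was the member held most unevenly. In the control, 319 barcodes, or 3.52%, had 2 or more CXCL8 UMIs and together held 53.4% of them, where a Poisson distribution of the same mean gives 147 such barcodes. At 10 mGy 209 such barcodes (1.66%) held 42.4% of the UMIs, at 100 mGy 210 (1.47%) held 45.7% and at 1 Gy 322 (2.79%) held 49.4%, where Poisson gives 66.9, 52.1 and 134. Barcodes chosen for 2 or more UMIs hold a large share by that choice, and under Poisson they would hold 17.5%, 10.1%, 8.42% and 14.9% of the CXCL8 UMIs from the control to 1 Gy. Barcodes with 3 or more CXCL8 UMIs numbered 139, 77, 86 and 116, where Poisson gives 9.30, 2.36, 1.51 and 7.12. After thinning, the highest single barcode had 14, 10, 8 and 17 CXCL8 UMIs.

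The variance of CXCL8 UMIs over barcodes, divided by their mean, was 2.27, 1.90, 1.91 and 2.31 from the control to 1 Gy, where counting alone gives 1. It was above 1.5 in all 4 libraries for CXCL8 alone among the 8 members over the floor, and for 0.705% of the 8513 genes. CXCL1 had values of 1.49, 1.73, 1.54 and 1.44 and CCL2 of 1.24, 1.59, 1.72 and 1.38. These 2 chemokines were thus also spread unevenly, and with CXCL8 were the 3 members above 1.2 in all 4 libraries, as were 2.28% of genes. The variance over mean of the other members over the floor lay between 1.02 and 1.30, beside a median over all genes of 1.01 to 1.02. Variance over mean grows with the mean, so the squared coefficient of variation beyond counting is given as well, and it was 6.59, 8.40, 10.3 and 8.12 for CXCL8, 2.81, 5.74, 4.92 and 2.84 for CXCL1 and 1.75, 2.82, 3.53 and 2.96 for CCL2. It was thus highest at 100 mGy for CXCL8 and CCL2 and at 10 mGy for CXCL1. TNFAIP3, at 3.14, 2.03, 2.47 and 1.48, was above CXCL1 and CCL2 in the control by this measure and below both in the other libraries. IL6 lay between 1.85 and 5.35 and IL1B between 4.15 and 8.16, from 77 to 156 thinned UMIs per library. LIF, ICAM1, RELB and NFKBIA ran from 0.279 to 1.53, and NFKBIA was lower than RELB in 3 of 4 libraries.

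**Figure D3:**
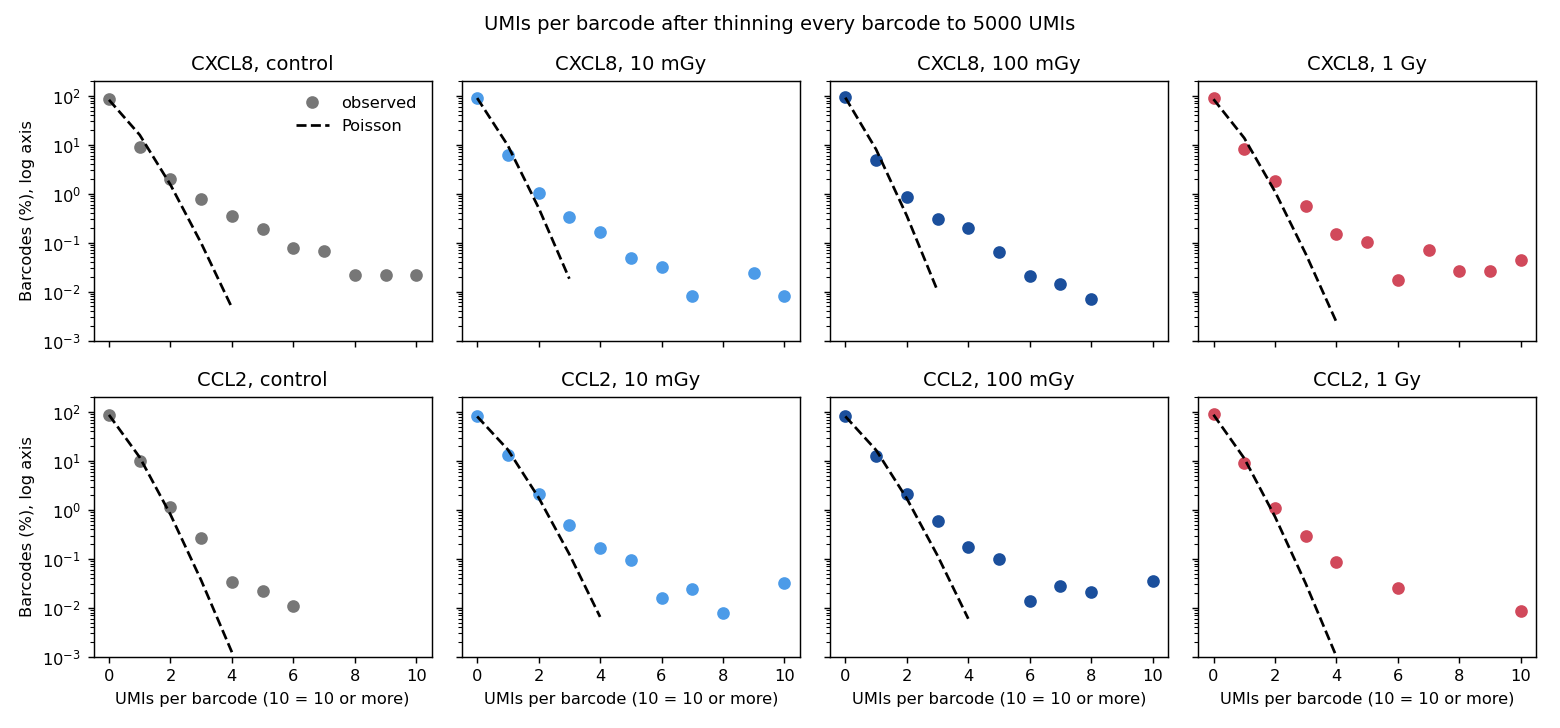
Points give the percentage of barcodes (vertical log axis) with each number of CXCL8 or CCL2 UMIs (horizontal axis, 10 standing for 10 or more) after thinning to 5000 UMIs, and dashed lines give a Poisson distribution of the same mean, in each of the 4 libraries. For CXCL8 in the control, 0.784% of barcodes had 3 UMIs, where Poisson gives 0.0977%, and the points leave the line in the same way in the other libraries.

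The main measure of concentration, the share of the UMIs held by the top 10% of barcodes at more than 1.5 times the Poisson share in all 4 libraries, was met by 0 members and by 0.0235% of genes. For CXCL8 that share was 87.1% in the control, where Poisson gives 61.0%, and 94.1% at 1 Gy, where Poisson gives 69.7%. At 10 mGy and 100 mGy fewer than 10% of barcodes had any CXCL8 UMI, so the share was 100% and the Poisson share was 98.7% and 100%, which leaves no room for a ratio of 1.5. Among all members only NFKBIA had room for such a ratio in all 4 libraries. Its share was 41.6% to 46.4%, where Poisson gives 38.9% to 41.3%. No other member could thus be called in all 4 libraries. In single libraries with room, the share was 1.43 times the Poisson share for CXCL8 and 1.21 times for CXCL1, both in the control. For CCL2 it was 1.21 times at 10 mGy and 1.25 times at 100 mGy. All of these were under 1.5 times. The top 1% of barcodes, chosen after seeing the data, held 24.4%, 29.9%, 35.0% and 27.1% of the CXCL8 UMIs, where Poisson gives 11.0%, 14.5%, 15.6% and 12.8%. By that measure CXCL8 was the 1 member that passed in all 4 libraries, as did 0.294% of genes.

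Fewer thinned barcodes with CXCL8, and fewer UMIs in those that had it, were both seen at every dose, and more so at the 2 lower doses. An average over barcodes that have a UMI moves with the mean level under counting alone, and no Poisson value stands beside it here. Thinned barcodes with at least 1 CXCL8 UMI carried on average 1.54 UMIs in the unirradiated library and 1.37, 1.41 and 1.47 with rising dose. For CCL2, the thinned share with a UMI was 11.7%, 16.3%, 15.5% and 10.7% in that order, and the mean in those barcodes 1.17, 1.28, 1.32 and 1.2 UMIs. Without thinning, when control barcodes had the most UMIs, the share was 30.6%, 29.8%, 27.1% and 22.6%, highest in the control. Barcodes with 2 or more CCL2 UMIs numbered 135, 375, 443 and 175, where Poisson gives 76.4, 240, 262 and 87.9, and they held 25.2%, 36.3%, 39.6% and 28.5% of its UMIs, where Poisson gives 12.7%, 18.9%, 18.5% and 12.1%. NFKBIA was the most widely detected member, in 40.5%, 37.9%, 36.6% and 41.7% of thinned barcodes.

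**Figure D4:**
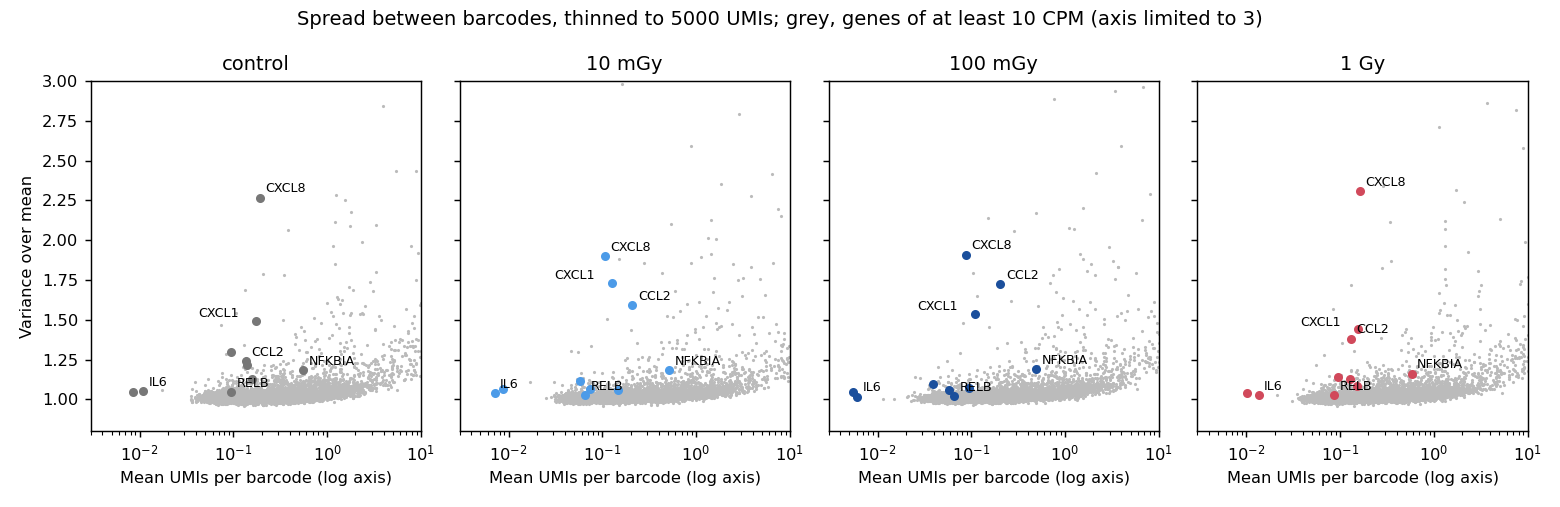
Each grey point is 1 gene of at least 10 CPM, with its mean UMIs per thinned barcode on the horizontal log axis and its variance over mean on the vertical axis, for each library. Coloured points are the members, and points outside the axes are not drawn. CXCL8 (2.27, 1.90, 1.91 and 2.31) stands above CXCL1 and CCL2. NFKBIA (1.16 to 1.19) lies above 96.4% to 96.8% of the genes, and RELB above 54.7% to 82.0%.

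The 7 other members over the floor were more abundant in barcodes rich in CXCL8. The thinned barcodes with 2 or more CXCL8 UMIs were set against those with 0, a split chosen after the values were seen. All barcodes had the same total, and the median gene ratio was 0.990 to 1.00. Of 8512 other genes over the floor, 16 (0.188%) were more than 1.5-fold higher in all 4 libraries, and these included all 7 of the other members over the floor. The remaining 9, named after their values were seen, were PTX3, BIRC3, PLAU, CLDN1, G0S2, NFKBIE, IER3, SOD2 and JUNB.

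CXCL1 differed most in this split. It had 0.831 UMIs per barcode in the CXCL8-rich barcodes of the control and 0.134 in those without CXCL8, a ratio of 6.21 (5.41 to 7.11). In the 10 mGy, 100 mGy and 1 Gy libraries the ratio was 8.49, 9.03 and 6.91. TNFAIP3 had ratios of 4.55, 4.01, 3.22 and 4.69 in the control, 10 mGy, 100 mGy and 1 Gy libraries, and CCL2 of 3.35, 3.24, 4.37 and 3.89. ICAM1 had 2.20, 2.18, 3.58 and 2.06 and LIF 2.44, 3.18, 1.95 and 2.01. NFKBIA was at 1.98, 2.01, 1.92 and 1.89 and RELB at 1.96, 1.60, 2.98 and 1.76, with an interval for RELB at 10 mGy of 0.983 to 2.46. IL6 had 3.11, 3.42, 3.40 and 1.86, from 4 to 10 UMIs in the CXCL8-rich barcodes, with intervals that held 1 at 100 mGy (0.902 to 9.07) and 1 Gy (0.732 to 3.95). IL1B had 3.37, 2.92, 8.09 and 4.75, with an interval that held 1 at 10 mGy (0.925 to 7.05). Thus CCL2, which stood higher at 10 mGy and 100 mGy while CXCL8 stood lower, was enriched in the CXCL8-rich barcodes within those libraries. Enrichment left most UMIs elsewhere, since barcodes without CXCL8 held 85.0% and 85.3% of the thinned CCL2 UMIs at 10 mGy and 100 mGy, and the CXCL8-rich barcodes 4.98% and 5.85%. In the control, barcodes without CXCL8 held 66.8% of the CXCL1 UMIs, 77.2% of CCL2 and 81.3% of NFKBIA.

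**Figure D5:**
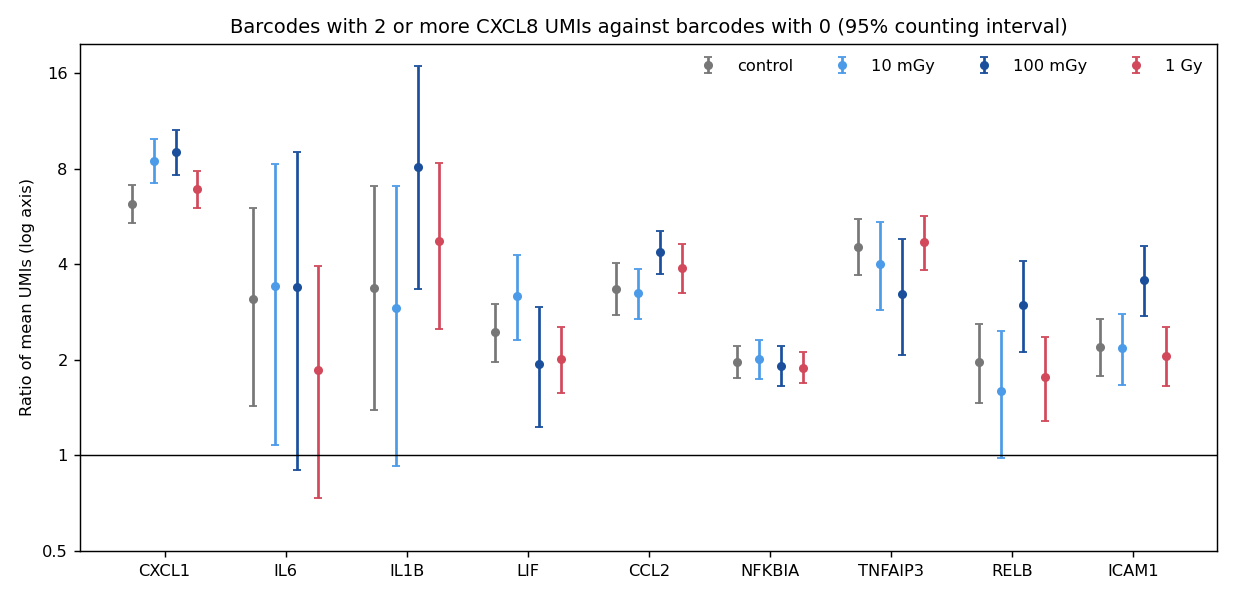
Points give, for each of the 9 other members, the mean UMIs in thinned barcodes with 2 or more CXCL8 UMIs divided by the mean in barcodes with 0 (vertical log axis), by library, with the 95% counting interval. Ratios of CXCL1 lie between 6.21 and 9.03, those of NFKBIA between 1.89 and 2.01, and the rare IL6 and IL1B have wide intervals.

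Starting from other members gave smaller sets. With barcodes split by CCL2, 7 genes (0.0822%) were more than 1.5-fold higher in all 4 libraries, and 4 of them were the members CXCL8 (4.28 to 6.27), CXCL1 (2.98 to 3.78), TNFAIP3 (2.39 to 3.31) and ICAM1 (1.89 to 2.17). BIRC3, PTX3 and CLDN1 were the others. With barcodes split by NFKBIA, 5 genes (0.0587%) were, of which 4 were the members CXCL8 (2.47 to 2.85), TNFAIP3 (2.07 to 2.63), CXCL1 (2.02 to 2.42) and LIF (1.58 to 1.62), and the fifth was BIRC3. BIRC3 was thus in all 3 sets, and CXCL8, CXCL1 and TNFAIP3 were in each set that could hold them.

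Counting the different members per barcode describes the same association without choosing a leading gene. It uses the same barcodes and members, so it is no separate support, and no other set of genes stands beside it. In the control, 4.42% of thinned barcodes had UMIs of 4 or more different members, where 1.91% would if the members were independent. With rising dose the shares were 2.23% against 0.968%, 1.77% against 0.544% and 3.91% against 1.69%. Barcodes with no UMI of any member were also more common than under independence, at 30.4% against 24.8%, 34.6% against 30.6%, 39.1% against 35.3% and 30.5% against 25.5%.

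Pearson's r of ln(1 + UMIs) over the thinned barcodes describes the same likeness gene by gene. The barcodes of a library share its preparation and were all thinned to 1 depth, and counts this sparse hold r near 0. CXCL8 with CXCL1 had the highest r of any pair of members, at 0.254, 0.217, 0.224 and 0.236 from the control to 1 Gy. The 3 genes most like CXCL8 by the mean over the 4 libraries were CXCL1 (0.233), IER3 (0.118) and CCL2 (0.112), and those most like CXCL1 were CXCL8, NFKBIA (0.0925) and MT2A (0.0905). CXCL8 was the gene most like CCL2 (0.112), NFKBIA (0.107), TNFAIP3 (0.101), ICAM1 (0.0781) and RELB (0.0443), all of them weak values. For LIF it was IER3 (0.0807), followed by CXCL8 (0.0632) and HBEGF (0.0544), values too weak in such sparse counts to be read as a finding.

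The next 2 places were CXCL1 (0.0870) and IER3 (0.0730) for CCL2, CXCL1 (0.0925) and IER3 (0.0862) for NFKBIA, and CXCL1 (0.0877) and NFKBIA (0.0740) for TNFAIP3. They were CXCL1 (0.0418) and BIRC3 (0.0382) for RELB, and MT2A (0.0520) and IL32 (0.050) for ICAM1. These too were weak.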

How the data were processed

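The deposited files held raw UMI counts per gene and barcode, made by the authors with the Chromium Single Cell 3′ v3 chemistry. The file headers name Cell Ranger 7.0.1 alone, and the submitters' notes name STAR and the build GRCh37. The files hold filtered barcodes of 4 libraries, 1 per dose, 211752280 to 285806026 UMIs each.

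Each barcode was scaled to 10000 UMIs and the mean over all deposited barcodes was given as CPM, on which 1.2-fold, the fold used in the study's methods, counted as higher or lower above a floor of 10 CPM. Measures over barcodes used barcodes thinned to 5000 UMIs. Intervals were exact Poisson, conditional binomial for ratios, and Clopper-Pearson for shares, at 95%, and cover counting error only. The Poisson and ratio intervals take each UMI as independent, so they are too narrow where UMIs are uneven over barcodes. Doublets were not removed, and barcodes of very high UMI count were left out as an alternative. Named were all members, the 2 highest and 2 lowest of each list at 10 mGy, and the 3 genes most alike to each member. Every gene over the floor in the list of subunits and that of the I-kappa-B family and brakes was also named. Members and lists were chosen with earlier results of these data known. The scripts were tested on simulated data. Promoters came from RefSeq GRCh38.p14, and no coordinate was converted. Python 3.11.15, numpy 2.4.6, scipy 1.17.1 and pandas 2.3.3 were used.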

Additional observations from a re-analysis of the deposited data

How the results depend on the processing

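With 1 library per dose no spread between replicates was measured, and no paired analysis was possible. Levels of IL6 and IL1B were limited by their few UMIs, and the thinned measures left out the shallower barcodes, most of all at 10 mGy. Median ratio scaling gave 2 members higher and 3 lower at 10 mGy and 2 higher at 100 mGy, with NFKBIA added to CCL2 as higher and RELB at 100 mGy turned to a log2 ratio of 0.053. Unscaled UMIs per barcode gave 0 members higher at 10 mGy and at 100 mGy, with CCL2 at -0.11 at 100 mGy, and 8 lower at 1 Gy, where 97.1% of all genes were lower on that scale (median log2 ratio -0.47). A threshold of 1.5-fold left 3 members lower at 10 mGy and 0 at 1 Gy. Pooled CPM, thinning to 1500 or to 5000 UMIs, and leaving out low-UMI barcodes each gave 0 lower at 1 Gy, because CXCL8 then lay within 1.2-fold. The number of members concentrated in a minority of barcodes was 1 by the top 1% of barcodes (0.294% of genes) and by a variance over mean above 1.5 (0.705%), and 3 above 1.2 (2.28%), all chosen after seeing the data. That number was 0 by the other settings. In the main one only NFKBIA had room to pass in all libraries, so no other member could be called by it. CXCL8, CXCL1 and CCL2 did not pass in the single libraries where they had room. Of 168 recomputed values, 1 per setting and per ratio counted as higher or lower, 156 stayed past 1.2-fold in the same direction. Of the rest, 10 came within it and the 2 named above reversed. Of 120 such values of ratios within 1.2-fold, 14 passed it and 17 changed sign. Of 72 values of IL6 and IL1B, under the floor, 42 were past it and 8 changed sign. The settings overlap and use the same 4 libraries, so these values are not separate checks.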
